A study of Mus musculus with 4 samples.

Results

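Offspring labelled ObF1 were compared with offspring labelled LnF1, both given water, in the stromal vascular fraction (SVF) of inguinal white adipose tissue. In general this fraction holds the cells left when fat cells are removed from the fat pad, among them fibroblast-like progenitors from which new fat cells form. The markers given below show very few white blood cell reads in these libraries. Every gene whose mean over the LnF1 water and ObF1 water libraries was at least 5 scaled CPM (reads of a gene relative to all reads of its library) was described, which kept 10227 of the 55536 rows of the deposited table. The values are called CPM here although the columns carry a further scaling factor.

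The series concerns parental obesity and the adipose progenitors of the offspring, and holds 4 bulk RNA libraries: LnF1 and ObF1, each with water or with a treatment labelled 1,3BD. All mice were wild-type males at postnatal day 21. No label gives the parents' diet or strain, and that ObF1 and LnF1 stand for offspring of obese and of lean parents was read from the series' own title and design. Each library was made from a pool of 3 mice, so a group is 1 library, the spread between mice or litters cannot be seen, and the water pair alone gives no p-value. A model over all 4 libraries is given last. The columns of the water libraries name no drink and were matched to the water samples because the other columns carry the suffix BD.

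Adipose progenitors build the collagen-rich matrix of the fat pad and choose between staying undifferentiated, becoming contractile matrix-producing cells, and becoming fat cells. Secreted Wnt, TGF-beta and insulin-like growth factor (IGF) signals, and the binding proteins and inhibitors that limit them, act on that choice, while PPARG and the C/EBP factors drive the fat cell program. Imprinted genes, which are read from the maternal or the paternal copy only, are abundant in the tissues of young animals and many of them act on growth.

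The LnF1 water library held 24804006 reads and the ObF1 water library 26000090, with 1 read worth 0.0424 and 0.0434 CPM. A gene with no read could stand at up to 0.127 CPM (LnF1) or 0.130 CPM (ObF1), the value of 3 reads. All 8 progenitor and fibroblast markers passed 5 CPM in the mean of these libraries, and their summed level was 28027 CPM in LnF1 and 28880 CPM in ObF1, most of it Col1a1 and Col3a1. Without these 2 collagens the other 6 summed to 2106 and 1856 CPM. Single markers went different ways: Pdgfra, a receptor that marks these progenitors, stood at 243 and 236 CPM, Thy1 at 651 and 749 CPM and Prrx1 at 569 and 622 CPM, while Ly6a, which encodes the surface antigen Sca-1, was at 300.5 and 182 CPM (difference -0.72), and Cd34 and Dcn were at least 2-fold lower in ObF1. The pan-leukocyte gene Ptprc was at 0.127 and 0.0434 CPM, which is 3 reads in LnF1 and 1 in ObF1. The highest of the 4 white blood cell markers, Laptm5, was at 1.53 and 1.26 CPM. Acta2, smooth muscle actin, was at 7692 and 8097 CPM, and at 113 and 165 CPM with 1,3BD. By these markers the water libraries held mostly RNA of fibroblast-like, contractile cells and little of white blood cells. The differences below are to be read with that in mind, and the make-up of the cells was not tested. The fat cell genes Adipoq, Lep and Ucp1, the T cell gene Cd3e and the epithelial gene Epcam had no read in either library. Mitochondrially encoded genes took 1.13% of the LnF1 and 1.30% of the ObF1 reads.

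Most genes were close to each other in the 2 libraries. The differences given here are log2(CPM + 0.08) of ObF1 minus that of LnF1, so 1 is a 2-fold higher and -1 a 2-fold lower value in ObF1. Their median was 0.01, the middle part of the genes between the quartiles ran from -0.21 to 0.24, and 88.1% of genes lay within 1.5-fold. ObF1 exceeded LnF1 at least 2-fold for 202 genes (1.98%) and fell short of it at least 2-fold for 155 (1.52%). The counts given below for gene lists are to be read beside these shares. The ends of the range were Mmp3 at 4.28 and Scara5 at -5.28.

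The low side held more of the very large differences. At least 8-fold higher were 5 genes and at least 8-fold lower were 13, while 38 genes passed 4-fold in each direction. Genes past 2-fold had a lower level than the rest, with a median mean CPM of 14.2 on the high side and 16.1 on the low side against 34.9 for all genes. A 95% interval that covers the counting of reads only, and neither the mice nor the library preparation, lay wholly past 2-fold for 136 of the 202 and 108 of the 155. The nearest genes left out by the filter were Psd (4.991 CPM) and Pex11a (4.996 CPM), and the nearest kept were Tmem44 (5.003 CPM) and Adh7 (5.005 CPM).

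**Figure D1:**
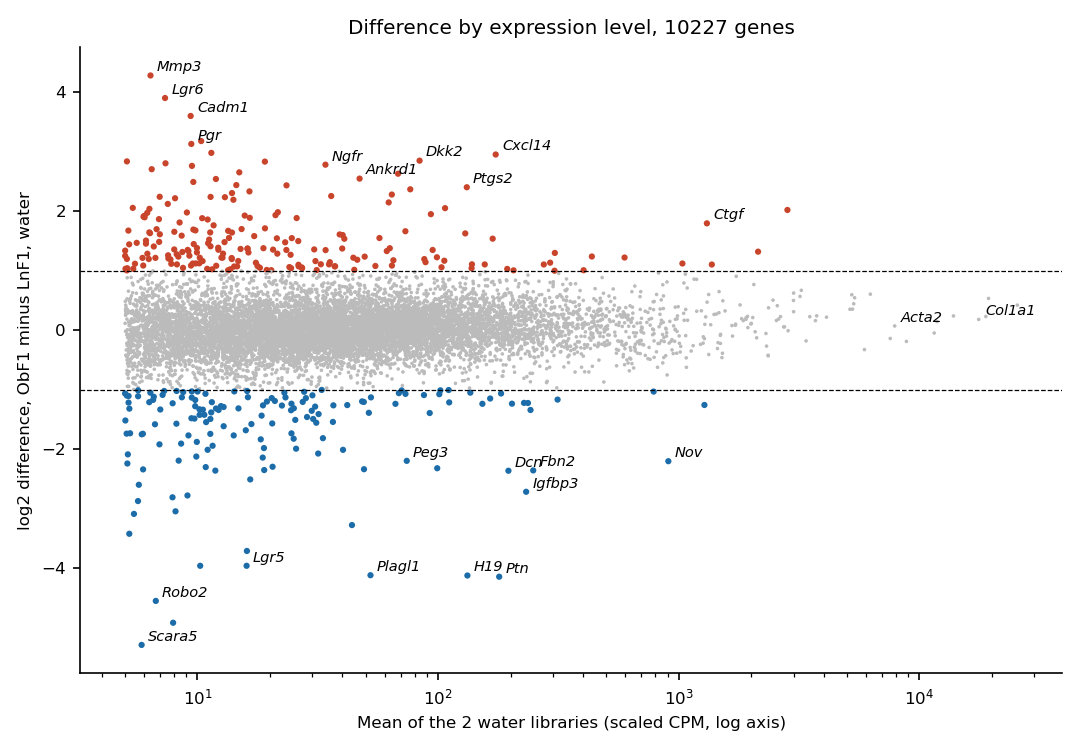
Difference between the ObF1 and LnF1 water libraries (vertical axis, log2) against the mean of these libraries (horizontal axis, scaled CPM, log scale), 1 point a gene. Red points are the 202 genes at least 2-fold higher, blue points the 155 at least 2-fold lower, and dashed lines mark 2-fold. Mmp3 (4.28) and Scara5 (-5.28) mark the ends of the range, and Nov is a labelled gene past 4-fold at a high level.

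Promoter sequence is shown for 4 of the genes with the largest differences, picked after their values had been seen to show windows with and without the TATA element: Dkk2, Mmp3 and Dio3 hold it, and Plagl1 does not. Genes with and without TATAAA were found in both directions. The lower genes Gnas and Lrrc17 also hold it in these windows, farther from the start and in Gnas on the opposite strand. The higher genes Lgr6, Cxcl14, Igfbp5, Ngfr and Cadm4 do not. Shares over all windows are given below. Each line is the 250 bases before the RefSeq transcription start on GRCm38.p6, 5′ to 3′ on the gene's own strand, which is the plus strand for all 4. The windows are chr3:132085042-132085291 for Dkk2, chr9:7445572-7445821 for Mmp3, chr12:110278980-110279229 for Dio3 and chr10:13090582-13090831 for Plagl1. Capitals mark matches, on either strand, to 8 motifs. The core promoter element TATAAA is where TBP binds, the factor NF-Y binds CCAAT, and AP-1 dimers bind TGACTCA. Factors of the CREB family bind sites that hold TGACGT, TEAD factors bind GGAATG, and basic helix-loop-helix factors bind the E-box CACGTG. Nuclear receptors bind AGGTCA, and SP1 binds GGGCGG.
Dkk2: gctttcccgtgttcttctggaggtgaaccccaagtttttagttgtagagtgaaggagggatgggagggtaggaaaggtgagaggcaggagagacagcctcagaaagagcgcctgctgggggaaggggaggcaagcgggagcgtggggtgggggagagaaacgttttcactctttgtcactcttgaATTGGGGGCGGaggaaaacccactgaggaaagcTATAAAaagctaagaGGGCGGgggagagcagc
Mmp3: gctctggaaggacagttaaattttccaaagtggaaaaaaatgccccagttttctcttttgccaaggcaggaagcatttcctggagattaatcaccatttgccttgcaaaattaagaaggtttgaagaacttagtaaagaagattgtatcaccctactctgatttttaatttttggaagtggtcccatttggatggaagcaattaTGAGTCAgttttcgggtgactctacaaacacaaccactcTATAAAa
Dio3: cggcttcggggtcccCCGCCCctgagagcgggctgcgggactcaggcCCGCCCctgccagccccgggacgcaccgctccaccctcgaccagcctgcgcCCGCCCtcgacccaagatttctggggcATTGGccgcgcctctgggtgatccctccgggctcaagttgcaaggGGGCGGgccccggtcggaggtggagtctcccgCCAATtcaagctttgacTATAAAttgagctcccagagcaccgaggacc
Plagl1: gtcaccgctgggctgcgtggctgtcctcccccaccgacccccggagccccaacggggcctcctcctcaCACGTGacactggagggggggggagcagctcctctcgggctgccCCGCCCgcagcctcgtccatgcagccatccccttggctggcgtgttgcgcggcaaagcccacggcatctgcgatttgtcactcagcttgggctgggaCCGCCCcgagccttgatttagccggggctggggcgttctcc

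TATAAA began 32 bases before the start in Dkk2 and 31 bases before it in Dio3, the distance at which the TATA element is known to act. In Mmp3 it lay closer, 7 bases before the start and outside the range of positions counted below, and the AP-1 motif lay on the opposite strand 46 bases before it. Plagl1 held the E-box motif and GGGCGG on the opposite strand at 138 and 41 bases before the start, but neither TATAAA nor TGACTCA. Of the 10227 genes, 8032 matched a RefSeq window of this length, among them 146 of those 2-fold higher and 110 of those 2-fold lower. TATAAA was found in 5.90% of all 8032 windows, in 12.3% of the windows of higher genes (18) and in 7.27% of those of lower genes (8). With the motif on the gene's strand and starting 40 to 16 bases before the start, these shares were 0.984%, 4.79% (7 genes) and 3.64% (4 genes). CCAAT went the other way, in 36.7% of all windows, 28.8% of higher genes (42) and 33 of the 110 windows of lower genes. TGACTCA was in 2.79%, 4.79% and 2.73%, and GGAATG in 10.2%, 10.3% and 9.09%. The windows of both sets held fewer CG dinucleotides, with medians of 12 (higher) and 13 (lower) against 17 for all. These shares describe letters in a window, not bound sites.

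Matrix and protease genes included the gene with the largest positive difference. Mmp3 encodes stromelysin-1, a secreted protease that cleaves matrix proteins and activates other matrix proteases, and lies at chr9:7445822-7455975 (GRCm38, plus strand). It stood at 0.552 CPM in LnF1 and 12.2 CPM in ObF1, a difference of 4.28 (counting interval 3.67 to 5.39). With 1,3BD, LnF1 was at 1.26 and ObF1 at 7.61 CPM, so both ObF1 libraries were above both LnF1 libraries. Over the 28 protease and inhibitor genes described, 3 were past 2-fold up and 3 down, with Adamts12 (174 and 376 CPM) among the higher and Cpz, a carboxypeptidase that can bind Wnt proteins (28.7 and 7.99 CPM), Adamts15 (17.4 and 5.17 CPM) and Adamts9 (72.2 and 33.0 CPM) lower. Adamts12 fell short of 2-fold (0.96) once a trend with transcript length and GC content was removed.

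Basement membrane genes, whose products form the thin sheet around vessels, fat cells and Schwann cells, had the highest median of the 54 lists described, 0.58. Of the 20 described of 25 listed, 6 were at least 2-fold higher, 1 was lower and 16 lay above 0. Smoc1, a matrix protein that limits BMP signals, was at 4.03 CPM in LnF1 and 25.8 CPM in ObF1. Col15a1, a collagen that ties basement membranes to the matrix below, was at 41.5 and 172 CPM, and Col18a1, the source of endostatin, at 59.1 and 139 CPM. The laminin chain Lama2 was at 87.5 in LnF1 and 189 CPM in ObF1, and Lama5 at 41.1 and 87.5 CPM. Both were close to 2-fold and fell short of it under 1 alternative each, Lama5 by library totals (0.99) and Lama2 without the length and GC trend (0.94). With 1,3BD the median of the 17 members described in both pairs was -0.29, on the other side of 0. There the order of Col15a1 (80.3 and 25.7 CPM) and of Lama5 (113 and 49.0 CPM) was the reverse. Smoc2, the close relative of Smoc1, was the exception past 2-fold, at 17.7 in LnF1 and 7.30 CPM in ObF1. The type IV collagens Col4a1 (2491 and 3970 CPM) and Col4a2 (2035 and 2893 CPM) differed less than 2-fold. They are neighbours on opposite strands, and strand use in the counting is not given in the sources used here.

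Integrins, the receptors that hold cells to this matrix, had a median of 0.53, with 3 of 14 at least 2-fold higher. The laminin receptor chain Itga7 stood at 4.46 CPM in LnF1 and 24.5 CPM in ObF1. The collagen receptor chain Itga2 was at 2.46 and 9.91 CPM, and the fibronectin receptor chain Itga5 at 357 and 834 CPM. Itgb1, the beta chain shared by all of these, was at 1517 and 2586 CPM, short of 2-fold. Itgbl1, an integrin-like secreted protein, was lower, at 18.3 and 7.43 CPM.

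Fibrillar collagens were nearly level while elastic fibre genes split. None of 17 fibrillar and related collagen genes passed 2-fold, which is near the share over all genes (1.98% higher and 1.52% lower). Col1a1 stood at 16522 and 18761 CPM. In the elastic fibre list 4 of 22 were at least 2-fold lower: Eln, elastin itself, at 16.1 in LnF1 and 3.65 CPM in ObF1; Fbn2, the fibrillin of developing tissue, at 416 and 81.3 CPM; Mfap4 at 28.2 and 4.91 CPM; and Mfap2 at 46.3 and 17.4 CPM. Fbn1, the fibrillin of mature tissue, was at 3427 and 4059 CPM, and the cross-linking enzyme Loxl3 was higher, at 183 and 402 CPM. The list's median was 0.20, on the other side of 0 from its 4 lower members.

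Small proteoglycans and other secreted matrix regulators held several of the lower genes. Dcn encodes decorin, which coats collagen fibrils and binds TGF-beta, and was at 328 CPM in LnF1 and 63.9 CPM in ObF1, a difference of -2.36. Its 1,3BD values, 68.7 and 81.1 CPM, were close to the ObF1 water value, so the LnF1 water library alone stood high. Gpc3, a cell surface glypican that binds growth factors, was at 34.1 and 6.91 CPM, and Dpt (dermatopontin) at 13.8 and 2.95 CPM. Nov, also called Ccn3, a matricellular protein at chr15:54745702-54754039, was at 1487 CPM in LnF1 and 324 CPM in ObF1, and at 10.9 and 2.29 CPM with 1,3BD. Its differences were -2.20 in water and -2.21 with 1,3BD, although the levels lay far apart. Ctgf (Ccn2), of the same family, was higher instead, at 585 and 2033 CPM in water and 8.57 and 29.2 CPM with 1,3BD. Cemip, which breaks down hyaluronan, was at 1221 and 3052 CPM.

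Contractile and mechanosensitive genes lay above 0 as groups. All 23 smooth muscle contractile genes described were above 0 (21 when scaled by library totals), with a median of 0.47, but only Des, the intermediate filament desmin, passed 2-fold (3.91 and 18.8 CPM). Acta2, smooth muscle actin, was at 7692 and 8097 CPM, a difference of 0.07 that turns to the other side by library totals. Among 23 target genes of the coactivator YAP and its partner TEAD, 4 were at least 2-fold higher and 1 lower, with a median of 0.46. Ankrd1, a nuclear ankyrin repeat protein, was at 13.7 in LnF1 and 80.6 CPM in ObF1, and at 0.717 and 0.937 CPM with 1,3BD. Ctgf, Tgfb2 (26.7 and 62.2 CPM) and Crim1 (89.9 and 186 CPM) were the other higher targets, and Igfbp3 the lower. Crim1 fell short of 2-fold by library totals (0.94) and without the length and GC trend (0.98). Immediate early genes, which respond within minutes to growth factors and stress, had 4 of 25 higher and none lower: Atf3 (3.69 and 13.2 CPM), Egr2 (24.0 and 50.7 CPM), Egr3 (9.08 and 20.5 CPM) and Fosb (3.52 and 7.30 CPM). By library totals Egr2 (0.98) and Fosb (0.93) fell short of 2-fold. Egr1 was at 273 and 224 CPM.

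**Figure D2:**
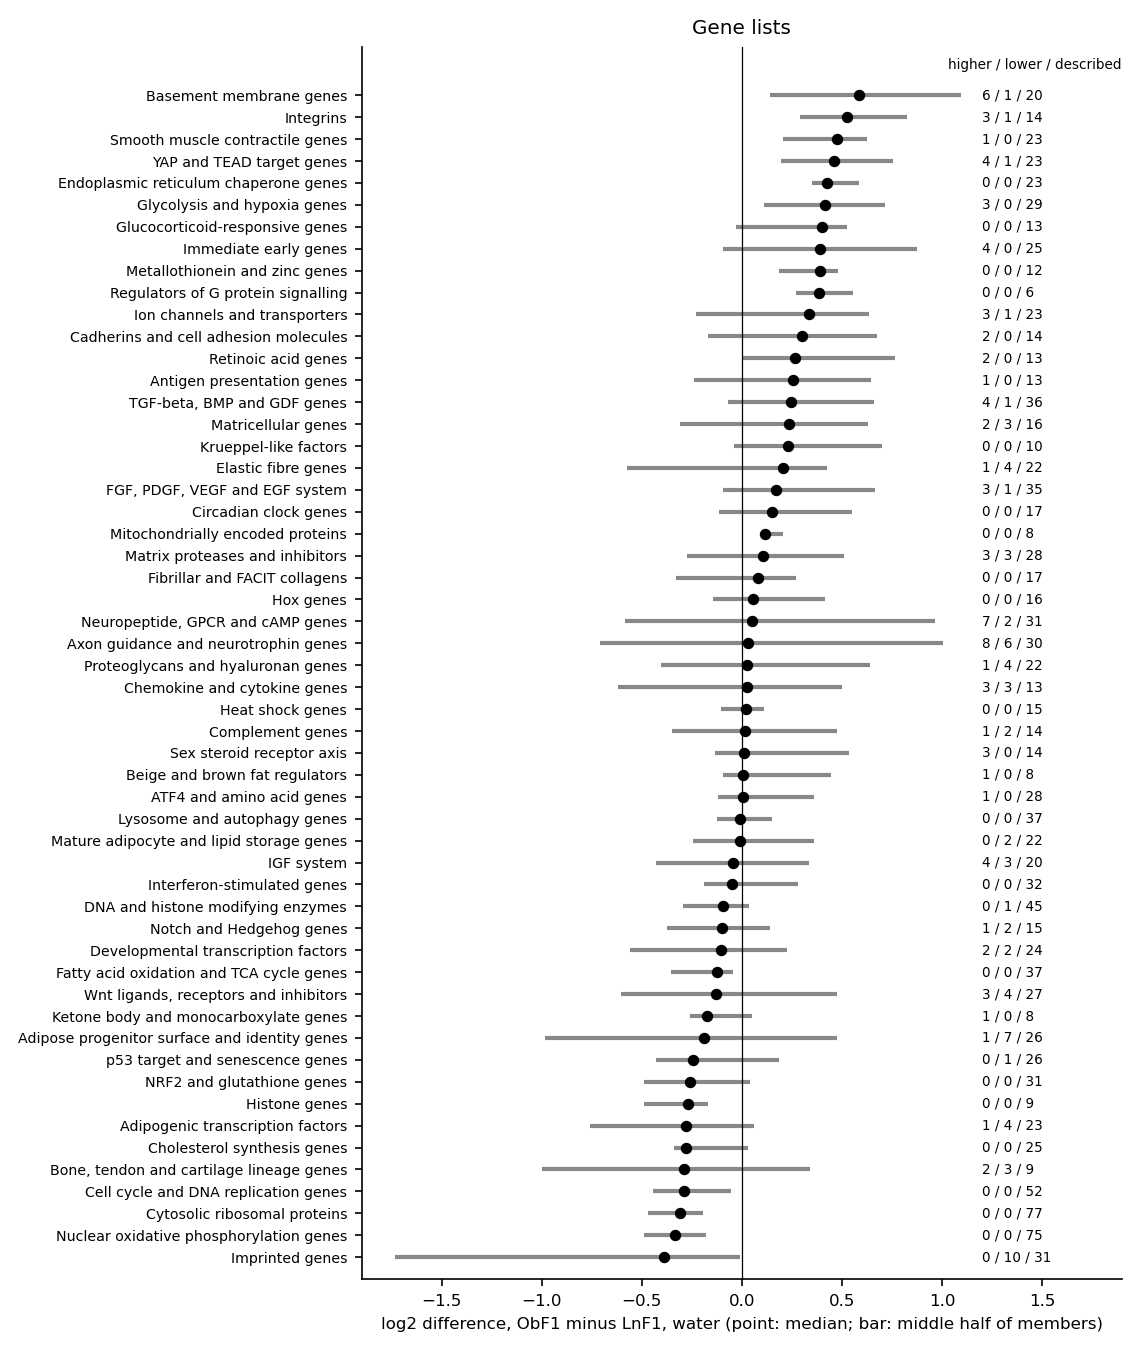
Difference between the ObF1 and LnF1 water libraries (horizontal axis, log2) for the 54 gene lists. Points are medians of the described members, bars span the quartiles, and the numbers on the right count members at least 2-fold higher, at least 2-fold lower and described. Basement membrane genes stand at the top (0.58) and imprinted genes at the bottom (-0.39). Over all genes described 1.98% were higher and 1.52% lower.

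Wnt pathway genes held large differences in both directions. Lgr6 and Lgr5 encode related receptors for R-spondins, which strengthen Wnt signals and mark stem cells in several tissues, and they differed in opposite ways. Lgr6 (chr1:134983301-135105276) was at 0.849 CPM in LnF1 and 13.8 CPM in ObF1, a difference of 3.90. Lgr5 (chr10:115450311-115587780) was at 30.1 and 1.87 CPM, a difference of -3.96. With 1,3BD, Lgr6 was at 0.0359 and 3.49 CPM, again higher in ObF1, while Lgr5 was at 0.789 and 1.12 CPM. The secreted inhibitor Dkk2 was at 20.3 in LnF1 and 147 CPM in ObF1 (difference 2.85), and at 0.681 and 4.84 CPM with 1,3BD. Sfrp1, another secreted inhibitor, was lower, at 1802 and 755 CPM, as were Rspo3, an R-spondin (27.0 and 9.95 CPM), and the receptor Ror1 (59.1 and 24.7 CPM). Over the list, 3 of 27 were higher and 4 lower.

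IGF binding proteins also went opposite ways. Igfbp5 was at 24.8 CPM in LnF1 and 128 CPM in ObF1, and Igfbp2 at 21.9 and 107 CPM. Igfbp3, the main carrier of IGF1 in blood, was at 403 and 61.4 CPM, and the hormone Igf1 itself at 134 and 51.0 CPM. With 1,3BD, Igfbp3 was at 213 and 344 CPM, the reverse order. The list had 4 of 20 higher and 3 lower.

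TGF-beta family genes were higher in 4 of 36 cases and lower in 1. The higher were Gdf6 (2.04 and 8.73 CPM), Tgfb2 and the activin chains Inhba (176 and 435 CPM) and Inhbb (28.1 and 64.1 CPM). The lower was Gdf10, also known as BMP3B, at 19.4 in LnF1 and 1.17 CPM in ObF1. Among 35 genes of the FGF, PDGF, VEGF and EGF systems 3 were higher and 1, Pdgfrl, was lower (41.9 and 15.2 CPM). The higher were the EGF receptor family ligands Ereg (4.24 and 12.9 CPM), Nrg1 (12.2 and 34.1 CPM) and Hbegf (8.96 and 23.3 CPM). Ptn, which encodes the secreted growth factor pleiotrophin and lies at chr6:36714929-36810220, was at 340 CPM in LnF1 and 19.2 CPM in ObF1, a difference of -4.14 (-4.29 to -4.01). Its 1,3BD values were 8.93 and 8.44 CPM, so the LnF1 water library stood apart from the other 3.

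Chemokine, prostaglandin and neuropeptide genes held several of the larger values. Cxcl14, a chemokine of fibroblasts, at chr13:56288643-56296551, was at 39.6 in LnF1 and 307 CPM in ObF1, a difference of 2.95 (2.86 to 3.06). It was at 5.27 and 16 CPM with 1,3BD, higher in ObF1 in both pairs. Cxcl12, which holds blood-forming cells in their niche, was lower, at 331 and 142 CPM. Ptgs2, the inducible cyclooxygenase that starts prostaglandin synthesis, was at 41.8 and 221 CPM, and at 67.3 and 158 CPM with 1,3BD, while Ptgfr, the prostaglandin F receptor, was at 19.9 and 3.82 CPM. Adcyap1r1, the receptor of the neuropeptide PACAP, was at 4.63 and 33.5 CPM. Of the 31 neuropeptide, receptor and cyclic AMP genes, 7 were higher and 2 lower, and of the 13 chemokine and cytokine genes 3 were higher and 3 lower. Over all genes 1.98% were higher and 1.52% lower. None of the 32 interferon-stimulated genes described passed 2-fold, which is near the share over all genes, and their median was -0.05.

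Genes that guide and feed nerve fibres had 8 of 30 members at least 2-fold higher and 6 lower, with a median of 0.03. Bdnf, a neurotrophin that keeps neurons alive, was higher, at 12.5 CPM in LnF1 and 36.8 CPM in ObF1, and the receptor Ngfr is described with the glial genes. Ntn4, a laminin-related netrin, was at 29.0 and 85.1 CPM, and Ret, the receptor for GDNF family ligands, at 3.23 and 8.99 CPM. The repellent Slit2 and its receptor Robo2 were both lower. Slit2 was at 434 and 194 CPM, and Robo2 at 12.9 and 0.478 CPM, a difference of -4.55 (-5.78 to -3.90). Semaphorins, guidance cues of another family, went both ways: Sema7a (6.37 and 20.5 CPM), Sema3e (2.93 and 7.08 CPM) and Sema6d (3.31 and 6.91 CPM) were higher, and Sema5a (51.3 and 12.2 CPM), Sema3d (15.6 and 5.78 CPM) and Sema3c lower.

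Sex steroid and retinoid genes were few but were among the larger differences. Pgr, the progesterone receptor, was at 1.87 CPM in LnF1 and 17.0 CPM in ObF1, and at 0.825 and 10.1 CPM with 1,3BD. Greb1, a target gene of the oestrogen receptor, was at 1.66 and 11.3 CPM, and at 1.26 and 10.6 CPM with 1,3BD. Of the 14 members described, 3 were past 2-fold, all higher, and for Pgr and Greb1 both ObF1 libraries were above both LnF1 libraries. Aldh1a2, which makes retinoic acid, was at 22.9 and 102 CPM, and Tgm2, a transglutaminase that retinoic acid induces, at 86.2 and 251 CPM.

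Adipogenic regulators were mostly on the lower side. Of 23 transcription factors of fat cell formation, 4 were at least 2-fold lower, 1 was higher and 6 lay above 0, with a median of -0.28. Cebpa was at 43.7 in LnF1 and 17.9 CPM in ObF1, and Cebpb at 51.8 and 21.6 CPM. Pparg, the master regulator of fat cells, was at 11.8 and 5.69 CPM, and Id4 at 31.7 and 13.2 CPM. The difference of Pparg, -1.04, fell short of 2-fold with a pseudocount of 1 (-0.93) and without the length and GC trend (-0.99), and that of Cebpb, -1.26, without the trend (-0.90). Ebf2, which marks progenitors of brown and beige fat, was higher, at 8.87 and 29.3 CPM. Lpl, the lipase that fat cells secrete and that PPARG induces, was at 347 and 137 CPM. With 1,3BD, Pparg was at 23.6 and 20.5 CPM and Cebpb at 66.8 and 48.0 CPM, both short of 2-fold, and Cebpa at 51.5 and 18.1 CPM.

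Progenitor surface and identity genes had 7 of 26 at least 2-fold lower and 1 higher. The lowest were Gdf10 and Dlk1, the preadipocyte factor that holds back fat cell formation, at 13.8 and 1.91 CPM. Cd34 was at 13.5 and 3.56 CPM, Cd24a at 38.2 and 16.6 CPM, Sema3c at 137 and 65.2 CPM, Mgp at 30.6 and 10.3 CPM, and Lpl also belongs to this list. Icam1, a marker of committed preadipocytes, was higher, at 5.09 and 13.1 CPM. The gene with the largest negative difference, Scara5, encodes a ferritin receptor at chr14:65666403-65764826 and was at 11.5 in LnF1 and 0.217 CPM in ObF1 (5 reads), a difference of -5.28 (-7.36 to -4.49). It was at 17.0 and 8.77 CPM with 1,3BD, so the ObF1 water library was the low one of the 4. Other genes of iron handling that were among the 40 lowest were Slc40a1, the iron exporter ferroportin (9.97 and 1.91 CPM), and Steap3, an iron reductase (31.7 and 6.17 CPM). These were put side by side after their values had been seen.

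Of the 40 most different genes on each side, 19 of the higher and 21 of the lower belonged to no list. Among the higher were Rgs8, a brake on G protein signals (1.99 and 18.7 CPM), and Rap1gap2, which switches off the small GTPase RAP1 (2.5 and 20.3 CPM). Eya2, a developmental coactivator, was at 1.19 and 8.99 CPM, and Crispld2, a secreted protein, at 18.9 and 117 CPM. Ampd3, which deaminates AMP, was at 12.4 and 59.5 CPM, and at 25.8 and 104 CPM with 1,3BD, and Erfe, the hormone erythroferrone, was at 2.42 and 10.2 CPM.

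Lower genes outside the lists included Syt13, a synaptotagmin (29.9 and 2.22 CPM in water, 25.1 and 5.51 CPM with 1,3BD), and Egfl6, a secreted EGF-repeat protein (9.59 and 0.825 CPM). Ctnna2, the neuronal alpha-catenin, was at 15.9 and 2.26 CPM. Itm2a, a membrane protein of developing cartilage and muscle, was at 30.5 and 6.86 CPM, and at 42.8 and 12 CPM with 1,3BD. Ppp1r3c, which targets a phosphatase to glycogen, was at 64.5 and 16 CPM, and level with 1,3BD at 34.1 and 35.6 CPM.

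Hedgehog and patterning genes also held single large differences. Gas1, a cell surface receptor that helps Hedgehog signals, was at 165 CPM in LnF1 and 33.1 CPM in ObF1, and at 173 and 169 CPM with 1,3BD, so the ObF1 water library was the low one. Gli2, a transcription factor of that pathway, was at 40.9 and 19.2 CPM, and the receptor Notch4 was higher, at 2.46 and 9.56 CPM. The homeobox genes Prrx2 (54.4 and 18.7 CPM) and Meox2 (3.14 and 9.08 CPM) differed in opposite ways. None of 16 Hox genes, which record position along the body, passed 2-fold, near the share over all genes (1.98% higher and 1.52% lower). Their median was 0.05. Tnmd, the tendon gene tenomodulin, was at 37.8 and 11.3 CPM, and Spp1, osteopontin, at 63.3 and 196 CPM.

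**Figure D3:**
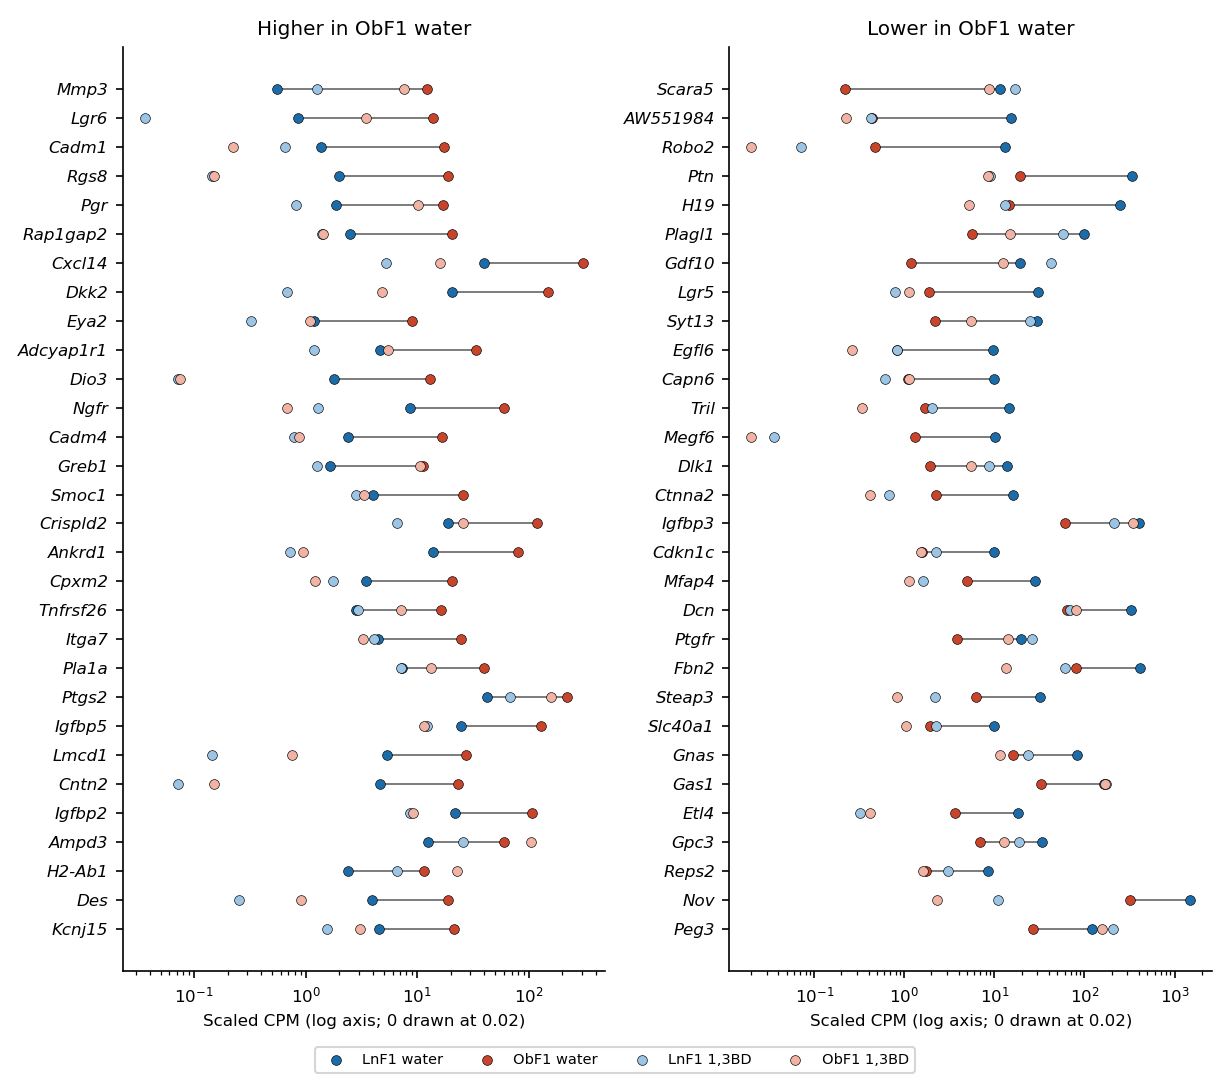
Level of the 30 genes with the largest differences in each direction (left, higher in ObF1 water; right, lower) in all 4 libraries, on the horizontal axis in scaled CPM (log scale). Lines join the LnF1 and ObF1 water libraries, and values of 0 are drawn at the left edge. For Ptn and Dcn the LnF1 water library stands apart from the other 3, and for Pgr and Greb1 both ObF1 libraries lie above both LnF1 libraries.

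Imprinted genes had the lowest median of the 54 lists, -0.39. Of 53 listed, 31 passed 5 CPM, and of these 10 were at least 2-fold lower, none was higher and 8 lay above 0. Dcn, which is imprinted in the placenta, counts among the 10, and without it 9 of 30 were lower with a median of -0.37. H19, a long non-coding RNA read from the maternal copy at chr7:142575529-142578143, was at 250 CPM in LnF1 and 14.3 CPM in ObF1, a difference of -4.12 (-4.29 to -3.97). Plagl1, a paternally read zinc finger factor at chr10:13060504-13131694, was at 99.1 and 5.65 CPM, a difference of -4.11 (-4.40 to -3.88). With 1,3BD, H19 was at 13.1 and 5.17 CPM and Plagl1 at 58.1 and 14.8 CPM, lower in ObF1 in both pairs. Over the 26 list members described in both pairs, the 1,3BD median was -0.11.

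The lower genes lay in several clusters and on both parental sides. In the Kcnq1 cluster, the maternally read cell cycle inhibitor Cdkn1c was at 9.85 and 1.56 CPM. In the Peg3 cluster, the paternally read zinc finger gene Peg3 was at 122 and 26.5 CPM and its neighbour Zim1, read from the maternal copy, at 8.11 and 2.39 CPM. Paternally read Mest was at 7.85 and 2.30 CPM, and Gnas, the stimulatory G protein locus, was at 82.2 and 16.2 CPM. The Gnas locus holds overlapping transcripts on both strands, which the row cannot separate.

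Not all members of a cluster went the same way. In the Dlk1 to Dio3 cluster of chromosome 12, Dlk1 and the maternal RNA Meg3 (318 and 137 CPM) were at least 2-fold lower, while Rian, also maternal, was at 400 and 300 CPM. Dio3, the thyroid hormone inactivating deiodinase at the other end of that cluster, was higher, at 1.78 and 12.9 CPM, and at 0.0717 and 0.0750 CPM with 1,3BD. Dio3 was not in the imprinted list and was placed here after its value had been seen. Grb10 (501 and 510 CPM), Peg10 (31.2 and 32.5 CPM), Sgce (77.3 and 75 CPM) and Igf2r (447 and 363 CPM) differed little. The DNA demethylase Tet1 was at 9.08 and 2.65 CPM. It was the only member past 2-fold among 45 DNA and histone modifying enzymes, near the share over all genes (1.98% higher and 1.52% lower).

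Genes of peripheral glia, the Schwann cells that wrap nerves, were among the higher genes. Ngfr, the p75 neurotrophin receptor of immature Schwann cells and of some fibroblasts, was at 8.57 CPM in LnF1 and 59.5 CPM in ObF1 and at 1.29 and 0.675 CPM with 1,3BD. Of the 4 Schwann markers, Sox10, the lineage's transcription factor, was at 1.23 and 8.52 CPM, while S100b was at 4.07 and 3.26 CPM. The sum of the 4 was 6.75 CPM in LnF1 and 18.9 CPM in ObF1, and 2.80 and 1.31 CPM with 1,3BD.

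A wider list of 25 glial genes was written after these values had been seen. Its sum was 90.0 CPM in LnF1 and 238 CPM in ObF1, and 31.8 and 30.8 CPM with 1,3BD. Ngfr, which some fibroblasts also express, and Egr2, counted above with the immediate early genes, made up 32.6 and 110.1 CPM of the water sums. The other 23 genes summed to 57.4 and 127.5 CPM. Of the 18 with at least 10 reads over both water libraries, 15 were at least 2-fold higher, none was lower and 3 (S100b, Cnp and Prx) lay within 2-fold. Among all 15685 genes with that many reads, 5.49% were at least 2-fold higher and 4.91% lower. The read filter can be passed through ObF1 alone, as by Mal (1 and 15 reads) and Sox2 (3 and 43 reads). With that filter, and with members chosen after their values were known, these counts are no test of the list. The list includes L1cam (0.679 and 8.86 CPM), Cdh19 (1.02 and 7.56 CPM), Erbb3, the neuregulin receptor of Schwann cells (1.36 and 5.82 CPM), and Mbp (1.23 and 6.13 CPM). Mag and Pou3f1 had no read in either library. Cadm4, by which Schwann cells hold axons, and Scn7a are both in this list and among the described genes past 2-fold. Not in the list but also past 2-fold were Cadm1, of the same adhesion family as Cadm4 (1.36 and 17.4 CPM), and Cntn2, a contactin of axons and glia (4.63 and 23.2 CPM). In bulk RNA, more cells of a type and more RNA per cell cannot be told apart, and the part of glial cells in these differences was not tested.

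Markers of other cells went in both directions. The 6 macrophage markers summed to 26.3 CPM in LnF1 and 15.2 CPM in ObF1, and single markers were mixed. Mrc1 was at 6.28 and 0.608 CPM, Lyz2 at 12.2 and 7.26 CPM, C1qa at 1.36 and 0.174 CPM and Adgre1 at 0.806 and 0.0434 CPM. Cd68 differed less, at 1.32 and 0.956 CPM, and Csf1r was higher in ObF1, at 4.33 and 6.13 CPM. The 6 endothelial markers summed to 24.7 and 25.1 CPM, but the level sum hides opposite differences. Tek, the largest part, was lower in ObF1, at 19.9 and 11.6 CPM. Higher were Pecam1 (1.36 and 4.04 CPM), Cdh5 (2.80 and 7.21 CPM), Kdr (0.467 and 1.61 CPM) and Vwf (0.212 and 0.695 CPM). Cldn5 had no more than 1 read. The 6 pericyte and smooth muscle markers summed to 7913 and 8395 CPM, nearly all of it Acta2, which contractile fibroblasts also express. Of the others, Cspg4, the pericyte proteoglycan NG2, was at 1.99 and 7.95 CPM, Des at 3.91 and 18.8 CPM, Myh11, the smooth muscle myosin, at 141 and 216 CPM, Notch3 at 70.3 and 51.7 CPM, and Rgs5 at 4.16 and 3.95 CPM. The skeletal muscle actin Acta1 was at 86.5 and 61.8 CPM, while the other 4 skeletal muscle markers had at most 2 reads in a library. The part of these cells in the differences above was not tested.

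Several housekeeping groups had medians a small way below 0. Of 77 cytosolic ribosomal protein genes, 1 lay above 0, with a median of -0.31 and none past 2-fold. Rps14 was at 1122 CPM in LnF1 and 668 CPM in ObF1. For nuclear-encoded oxidative phosphorylation subunits the median was -0.33, with 6 of 75 above 0, and Cox4i1 was at 345 and 221 CPM. Of 13 mitochondrially encoded protein genes listed, the 8 that passed 5 CPM were all above 0 (5 by library totals), with a median of 0.12. Cell cycle genes had a median of -0.29 (10 of 52 above 0), with the kinase Plk1 at 43.6 and 28.4 CPM, and cholesterol synthesis genes one of -0.28 (8 of 25). Over members described in both pairs, the 1,3BD medians were 0.07 (ribosomal), -0.05 (oxidative phosphorylation), 1.26 (mitochondrially encoded), -0.01 (cell cycle) and -0.30 (cholesterol synthesis).

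On the other side of 0, all 23 endoplasmic reticulum chaperone genes (22 by library totals), which fold secreted proteins, were above 0 with a median of 0.43. Hspa5, the chaperone BiP, was at 729 and 1402 CPM, and Hsp90b1 at 693 and 1035 CPM, both short of 2-fold. Glycolysis and hypoxia genes were above 0 in 26 of 29 cases (22 by library totals) with a median of 0.42, and 3 passed 2-fold, the glucose transporter Slc2a3 (3.27 and 6.78 CPM), the lactate exporter Slc16a3 (137 and 275 CPM) and the collagen hydroxylase P4ha2 (267 and 538 CPM). All 3 were just past it and fell short by library totals (0.93, 0.91 and 0.91). Over all genes, 51.3% lay above 0. For members described in both pairs, the 1,3BD medians were 0.02 (chaperones) and 0.10 (glycolysis and hypoxia).

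The difference was related to transcript length and base content across genes. The shortest of 5 equal groups by exon length had a median of -0.16 and the longest one of 0.11, and the group of lowest GC content had a median of 0.13 and that of highest GC content one of -0.12. Ribosomal protein and oxidative phosphorylation transcripts are short. When the trend with length and GC was removed, the ribosomal median went from -0.31 to -0.18 and the oxidative phosphorylation median from -0.33 to -0.20, while that of endoplasmic reticulum chaperones was 0.45 and that of imprinted genes -0.51. Whether this trend arose in the cells or in library preparation was not tested.

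**Figure D4:**
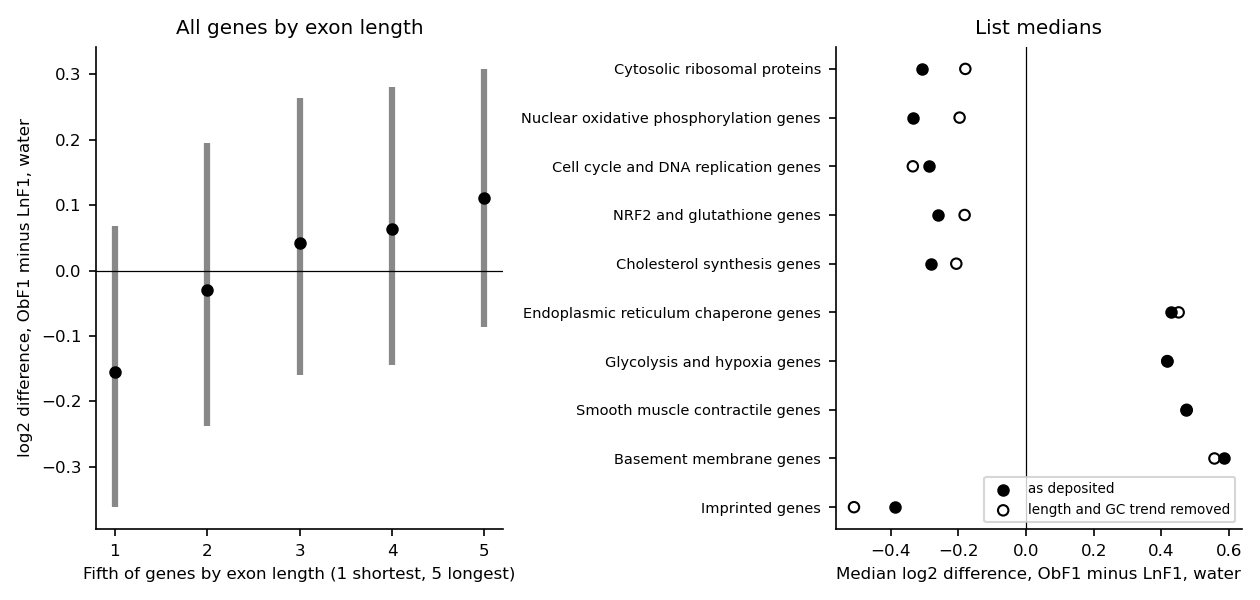
Left, difference between the ObF1 and LnF1 water libraries (log2, vertical axis) in 5 groups of genes by exon length, with medians as points and quartiles as bars, from -0.16 in the shortest to 0.11 in the longest group. Right, median difference (log2, horizontal axis) of 10 gene lists as deposited (filled) and after removal of the trend with length and GC content (open).

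The 1,3BD pair shares no library with the water pair. There, of 9895 genes, ObF1 exceeded LnF1 at least 2-fold for 175 (1.77%) and fell short of it at least 2-fold for 253 (2.56%). Of the 202 genes higher in water, 113 had a mean of at least 5 CPM with 1,3BD, and 22 of these were also at least 2-fold higher there, 19.5% of the 113 and 12.6% of the 175. Opposite by 2-fold were 4, and the median difference with 1,3BD was 0.52. Of the 155 lower in water, 90 had that mean, 17 were also at least 2-fold lower (18.9% of the 90 and 6.72% of the 253), 2 were opposite and the median was -0.43. The median over all 9484 genes at that mean in both pairs was 0.03. Those 22 include Pgr, Greb1, Cxcl14, Crispld2, Ptgs2 and Ctgf, and the 17 include H19, Plagl1, Gdf10, Nov, Fbn2, Gnas, Cebpa and Syt13. Mitochondrially encoded genes took 2.78% of the LnF1 and 5.80% of the ObF1 reads with 1,3BD, against 1.13% and 1.30% with water. Treatment and library pool differ together between the pairs, so their parts cannot be told apart.

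An additive model of parents and treatment over the 4 recovered read tables, fitted with edgeR's quasi-likelihood test with 1 residual degree of freedom, called 19 genes higher and 14 lower in ObF1 of 12853 tested at a Benjamini-Hochberg adjusted p of 0.05. Among the 202 higher genes in water were 17 of the 19, and among the 155 lower were 12 of the 14. This model asks for the same difference in both pairs and holds no replicate within a group. It includes the water libraries that gave the 202 and 155 genes. The overlap is therefore partly built in and is no separate support.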

How the data were processed

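RNA from the stromal vascular fraction of pooled mice was sequenced in 4 libraries, 1 per group. The authors deposited a table of 55536 genes with 1 column of signal a library, in CPM multiplied by a scaling factor per library. The names mm10, edgeR and DESeq2 stand in the submitters' processing notes; for the aligner, the counter and strand use no source used here names any. Dividing each deposited signal column by its smallest value above 0 gave whole numbers for 100% of values (relative tolerance 1e-06), taken as reads: 24804006 and 26000090 in the water libraries.

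Genes with a mean of at least 5 CPM over the water libraries were described by log2(CPM + 0.08), ObF1 minus LnF1. Intervals are 95% Clopper-Pearson intervals of the recovered reads and cover counting error only. The interval and ratio code was tested on simulated data. Positions come from GENCODE release M21 (GRCm38) and promoter windows from RefSeq (GRCm38.p6). Symbols come from the table and, for 2271 of the 2339 rows without one, from the reference.

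The members, the 54 gene lists and the tests were chosen with earlier results of these data known. Genes were named by a rule: the 40 most different in each direction, leaving out numbered names and pseudogenes, with the most different and most abundant members of each list. Of the 40 highest, 19 were in no list, and of the 40 lowest, 21. Alternatives were another pseudocount, other filters, library totals, DESeq2 1.42.0 size factors and removal of a length and GC trend. TMM factors of the water libraries (edgeR 4.0.16) gave the same counts and the same median over all genes as the deposited scaling. TMM was therefore no separate check. The edgeR model over 4 libraries was added after the data were seen. Python 3.11.15, pandas 2.3.3, scipy 1.17.1 and R 4.3.3 were used. A few genes counted in the lists are not reported here by name.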

Additional observations from a re-analysis of the deposited data

Results flagged for a closer look

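For 6 genes the ObF1 and LnF1 libraries differed by at least 2-fold in opposite directions in the water and the 1,3BD pair. The 2 given here are those named by the rule, and the other 4 carry numbered gene names, which the rule leaves out. Col15a1 was at 41.5 CPM in LnF1 and 172 CPM in ObF1 with water (log2 difference 2.05), and at 80.3 and 25.7 CPM with 1,3BD (-1.64). Lama5 was at 41.1 and 87.5 CPM with water (1.09), and at 113 and 49.0 CPM with 1,3BD (-1.20). Each value is 1 library, and the difference between the pairs was not tested.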

How the results depend on the processing

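The 202 higher and 155 lower genes rest on the filter: 449 and 310 passed at a mean of at least 1 CPM, 80 and 67 at 20 CPM, and 2132 and 2368 with any read. A pseudocount of 1 gave 182 and 134, DESeq2 size factors 193 and 159, and removal of the length and GC trend 199 and 151. Scaling by library totals gave 167 and 187, and shifted the median of all genes from 0.01 to -0.09. All 80 genes with the largest differences stayed past 2-fold under each alternative that kept them (28 of them at 20 CPM). Under at least 1 alternative the median of 16 of the 54 lists changed sign, and for 12 of these it lay within 0.1 of 0 to begin with. By library totals 11 changed sign, all of them such lists: fibrillar collagens, proteoglycans (0.03 to -0.08), Hox (0.05 to -0.05), axon guidance (0.03 to -0.07), neuropeptide (0.05 to -0.05), chemokine, complement, sex steroid, beige fat, ATF4 and heat shock genes. At 1 CPM 6 did, among them interferon-stimulated genes (-0.05 to 0.10), and at 20 CPM 8 did, among them Wnt genes (-0.13 to 0.09). Sign changes under a filter on low values include fibrillar collagens (0.08 to -0.054 at 1 CPM, -0.31 with any read, and -0.023 by library totals), progenitor identity genes (-0.19 to 0.017 at 1 CPM, 0.16 with any read, 0.12 at 20 CPM) and bone, tendon and cartilage genes (-0.29 to 0.57 at 1 CPM, 0.42 with any read), where the filter changes which members are counted. The labels carry no replicate numbers, so the only blocked comparison was the edgeR model with treatment as a term.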
